A study of Mus musculus with 12 samples.

Results

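The annexin genes Anxa1, Anxa2, Anxa3, Anxa4, Anxa5, Anxa6, Anxa7, Anxa8 and Anxa11 were followed in natural killer (NK) cells of the mouse, innate lymphocytes that kill target cells and release interferon gamma. These 9 genes were taken by name from the 12 annexin genes among the 55487 features measured. Anxa8 was chosen by its measured YFP+ minus YFP- difference in these samples, where it stood at place 8 of 12364 genes by size and second among protein-coding genes called higher, raised in all 4 labels and with a mean log2 CPM of at least 2. The contrast sets cells that switched on an interferon gamma reporter against stimulated cells that did not, and the other 8 were included as its paralogs, whatever their values. RNA-seq libraries came from 12 samples of cell type natural killer, all labelled HD IL-15 (IL-15 is a cytokine that maintains and primes NK cells), and all from strain B6.129S4-Ifngtm3.1Lky/J with genotype mut/mut, which the labels give to control and treated samples alike. The Ifng allele of this strain carries a yellow fluorescent protein (YFP) reporter, and reporter signal stood here for cells that had turned the gene on. The 3 groups held 4 samples each: unstimulated cells, with no time given, and cells given anti-NK1.1, an antibody against an activating NK receptor, for 6 h, which were either YFP- or YFP+. Each group had 1 sample labelled F (f2) and 3 labelled M2, M3 and M4 (m2, m3 and m4). The labels gave no age, did not say whether samples were pooled or whether equal labels came from 1 mouse, and described no separate cultures, so p-values below measure only the spread between these samples. YFP- and YFP+ samples hold different cells, both given anti-NK1.1, so cells that changed and a different makeup of cells cannot be told apart in them, and in bulk samples fewer cells of a type and less RNA per cell cannot be told apart.

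Annexins are cytosolic proteins that bind phospholipid membranes when calcium rises, through a conserved repeat that forms the core of each member. The N-terminal tails differ and recruit partners, chiefly small EF-hand proteins of the S100 family. Annexins are known for organising membrane and actin at sites of exocytosis, endocytosis and repair of the plasma membrane. In lymphocytes the best known member is annexin A5, used in the laboratory as a stain for phosphatidylserine on dying cells, and annexin A1 is known as an anti-inflammatory protein.

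Of the annexin genes, Anxa8 lay on chromosome 14 of the mouse genome (build GRCm38, GENCODE M21), from 34085981 to 34100571 on the plus strand. Anxa7 and Anxa11 lay on the same chromosome, at 20455260 to 20480133 on the minus strand and 25842156 to 25886804 on the plus strand. The others were Anxa1 on chromosome 19 (20373428 to 20390944, minus), Anxa2 on 9 (69453620 to 69491795, plus), Anxa3 on 5 (96793339 to 96845966, plus), Anxa4 on 6 (86736840 to 86793584, minus), Anxa5 on 3 (36448923 to 36475894, minus) and Anxa6 on 11 (54979108 to 55033445, minus). The stretches just before a transcription start, where the promoter lies, are shown for Anxa8, the gene that rose most, for Anxa4, the paralog that was called lower in both comparisons with YFP+ samples, and for Anxa11, the family's most CpG-rich stretch. Each is 250 bases long, reads 5′ to 3′ on the gene's own strand, ends at the base before the RefSeq start (GRCm38.p6) and overlaps no exon of the annotation. Capitals mark matches, on either strand, to the motifs listed after them.
Anxa8, chr14:34085729-34085978, plus strand: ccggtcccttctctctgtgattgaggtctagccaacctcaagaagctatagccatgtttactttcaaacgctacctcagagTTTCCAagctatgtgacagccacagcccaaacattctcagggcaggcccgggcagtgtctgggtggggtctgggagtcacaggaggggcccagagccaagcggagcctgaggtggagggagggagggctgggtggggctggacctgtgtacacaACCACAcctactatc
Anxa4, chr6:86793585-86793834, minus strand: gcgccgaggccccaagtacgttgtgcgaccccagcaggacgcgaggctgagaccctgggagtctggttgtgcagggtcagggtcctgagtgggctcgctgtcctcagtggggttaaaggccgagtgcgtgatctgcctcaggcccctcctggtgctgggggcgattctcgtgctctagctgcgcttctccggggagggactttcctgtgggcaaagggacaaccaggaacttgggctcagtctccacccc
Anxa11, chr14:25841905-25842154, plus strand: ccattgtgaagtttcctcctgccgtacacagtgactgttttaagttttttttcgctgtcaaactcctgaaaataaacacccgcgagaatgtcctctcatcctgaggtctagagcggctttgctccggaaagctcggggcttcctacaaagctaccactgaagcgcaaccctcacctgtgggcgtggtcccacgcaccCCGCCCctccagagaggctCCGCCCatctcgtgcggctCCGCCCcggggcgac

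RefSeq windows were matched by symbol for 7 of the 9 genes, with 9 start sites, and Anxa3 and Anxa6 had no entry. The motifs searched on both strands were AP-1 (TGANTCA, in 6.75% of 32851 promoter windows of this length), CRE (TGACGTCA, 1.55%), the GC box (GGGCGG, 32.7%), the E-box (CACGTG, 6.02%), the TATA box (TATAAA, 12.4%), a T-box motif (GGTGTGA, 3.33%), RUNX (TGTGGT, 14%), ETS (CCGGAAGT, 2.88%) and the NFAT core (TGGAAA, 18.6%). None of these motifs contains another. In Anxa8 the capitals are an NFAT core on the minus strand that begins 169 bases before the start and a RUNX motif on the minus strand that begins 15 bases before it. The Anxa4 window held none of the 9 motifs, and the Anxa11 window held 3 GC boxes on the minus strand, beginning 53, 34 and 15 bases before the start. The Anxa8 window was 58.0% G and C, with 4 CpG sites and a CpG ratio (observed over expected from base content) of 0.19, while the Anxa11 window had the same G and C content, 17 CpG sites and a ratio of 0.84. The Anxa4 window had 13 CpG sites and a ratio of 0.50, and the median over all windows was 0.37. Among the windows not shown, that of Anxa1 had a TATA box 32 bases before the start and a CpG ratio of 0.15, and that of Anxa2 had AP-1 at 95 bases, a TATA box at 17 bases and a ratio of 0.42. A match is a run of letters and not evidence that a factor binds there.

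Levels are given in CPM, a gene's reads relative to all reads of its library, and differences as log2 of CPM with their standard error (SE). A gene was called where the Benjamini-Hochberg adjusted p from limma, over 12364 genes with log2 CPM above 0 in at least 4 samples, was under 0.05. All 9 annexins were among the genes tested, but Anxa8 and Anxa3 passed this filter through the stimulated samples. Libraries held 32.1 to 54.2 M reads (M for mega), so 3 reads, the smallest level that could be shown, were 0.0553 to 0.0933 CPM, a floor that covers counting error only. All 10 NK marker genes were above 1 CPM in all samples, and their summed level ran from 14665 to 17347 CPM without stimulation, from 10165 to 12664 CPM in the YFP- group and from 10683 to 14468 CPM in the YFP+ group. Gzma, Prf1 and Nkg7 made up most of this sum. Klrb1c was at 290 to 327, 57.6 to 86.6 and 3.70 to 8.97 CPM in the 3 groups. Ncr1 (244 to 249 CPM unstimulated, 105 to 138 YFP+), Klrd1 (358 to 415, 150 to 178) and Eomes (102 to 115, 38.3 to 43.0) were also lower in YFP+. Klrk1 was higher there (183 to 195, 210 to 274). Of 7 markers of epithelial cells, a cell class in which Anxa8 is known to be expressed, 2 (Epcam and Cdh1) were above 1 CPM in all samples of each group. Their summed level was 8.02 to 9.65 CPM in unstimulated, 7.16 to 9.40 CPM in YFP- and 4.13 to 6.12 CPM in YFP+ samples. Of 6 fibroblast or endothelium markers only Pecam1, which leukocytes also carry, was above 1 CPM in all samples, and the endothelial Cdh5 reached at most 0.0617 CPM. The summed level of that list, nearly all Pecam1, was 26.1 to 29.9 CPM without stimulation, 32.4 to 62.0 CPM for YFP- and 29.2 to 42.0 CPM for YFP+. Of 8 T cell markers, 3 (Cd3d, Cd3g and Cd28) were above 1 CPM in all samples, and Cd4, Cd8a and Cd8b1 did not reach 0.2 CPM in any. The T cell sum was 118 to 167 CPM without stimulation, 138 to 226 CPM for YFP- and 189 to 295 CPM for YFP+. It ran higher in the same order as Anxa8, with overlap, through Cd28, at 61.3 to 78.8, 75.1 to 181 and 142 to 260 CPM. Cd3d, at 14.2 to 25.9, 12.8 to 20.6 and 7.25 to 13.8 CPM, ran lower in that order. So did Cd3g, at 30.9 to 79.4, 24.4 to 41.7 and 11.7 to 31.9 CPM, both with overlap between neighbouring groups. Macrophage markers, mainly Cd68, summed to 52.9 to 60.2, 27.3 to 44.4 and 14.7 to 24.0 CPM, lower where stimulated. The part of these markers in the annexin values was not tested.

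The YFP+ samples m3 and m4 stood apart from f2 and m2. Correlations of log2 CPM across genes were 0.938 to 0.982 between YFP+ samples, against 0.974 to 0.985 between unstimulated and 0.980 to 0.983 between YFP- samples. In YFP+, f2 and m2 were both above both m3 and m4 for 9 of the 9 annexins. The share of reads on 359 rRNA-like features was 13.7% in YFP+ f2 and 16.3% in m2, against 29.8% in m3 and 23.1% in m4. In unstimulated samples m4 was lowest for 8 of the 9 annexins and had the highest such share, 35.3%, against 27.4% to 30.8% in the other samples. The share of all genes with these orders was not counted, so they are not read as a trait of the annexins. The part of rRNA-like reads in these orders was not tested. Values without YFP+ m3 and m4 are given beside the results of the annexins.

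Anxa8 codes for annexin A8, a member known from epithelia, endothelium and late endosomes. In unstimulated cells it was near silence, at 0.997 CPM in f2, 0.973 in m2, 0.602 in m3 and 0.308 in m4, which were 10 to 38 reads. In YFP- cells it stood at 17.7, 25.7, 15.5 and 12.0 CPM in the same order of labels. In YFP+ cells it stood at 146, 155, 54.2 and 99.1 CPM. The 3 groups did not overlap: the lowest YFP- sample was above the highest unstimulated sample, and the lowest YFP+ sample above the highest YFP- sample. Group means were 0.720 ± 0.329 CPM in unstimulated, 17.7 ± 5.82 CPM in YFP- and 114 ± 46.5 CPM in YFP+ samples (SD, n = 4 each).

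Between unstimulated and YFP- cells Anxa8 rose 25.7-fold. The choice of Anxa8 did not rank this contrast, but it used the same YFP- samples and a mean over all 12 samples. Anxa8 also passed the filter through the stimulated samples, so the p-value here is not independent of the choice. The log2 difference was 4.68 (SE 0.40; limma adjusted p = 9.5e-07), with 4.13 in f2, 4.71 in m2, 4.66 in m3 and 5.23 in m4 when samples of 1 label were set against each other. It stood at place 89 of 12364 genes ranked from the largest rise to the largest fall. The YFP+ level was 6.15-fold above YFP-, a log2 difference of 2.62, and 158-fold above unstimulated, a log2 difference of 7.30. These YFP+ values are what chose the gene and are given as a description, without a test. Within labels the YFP+ minus YFP- difference was 3.05 in f2, 2.59 in m2, 1.80 in m3 and 3.05 in m4, and without YFP+ m3 and m4 it was 3.14. By the rule given above, Ifng itself ranked above Anxa8 with 2.86, and Fkbp11 with 2.03 and Spns2 with 2.02 ranked below it.

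**Figure D1:**
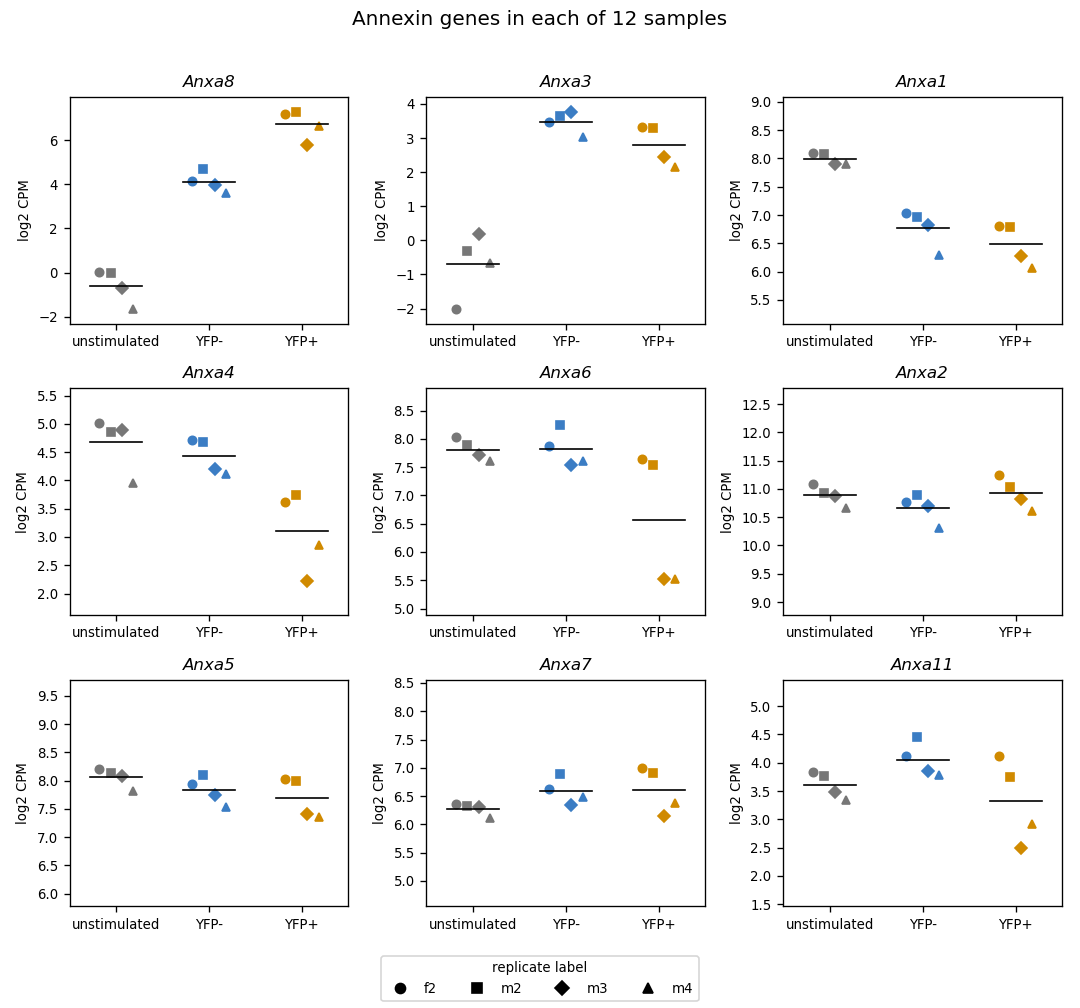
Log2 CPM of the 9 annexin genes in the 12 samples, with 1 panel per gene, groups on the x axis, a marker shape per replicate label and a bar at the group mean (n = 4). Anxa8 climbs from unstimulated through YFP- to YFP+ without overlap, Anxa3 rises in both stimulated groups, Anxa1 falls in both, and YFP+ m3 and m4 lie well below f2 and m2 for Anxa6.

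Genes around Anxa8 were read to see whether the neighbourhood moved. Within 250 kb, Shld2, a gene of DNA end protection, and Glud1, the mitochondrial glutamate dehydrogenase, were the protein-coding genes that passed the filter. Shld2 was at 2.03 to 4.65 CPM over the 12 samples and was not called in any comparison (limma adjusted p = 0.264 to 0.831). Glud1 was at 71.1 to 84.2 CPM in unstimulated, 58.2 to 72.1 CPM in YFP- and 78.4 to 119 CPM in YFP+ samples, with a log2 difference of 0.59 for YFP+ over YFP- (limma adjusted p = 0.00932). Over unstimulated, Glud1 was 0.41 in YFP+ (limma adjusted p = 0.022) and -0.18 in YFP- (limma adjusted p = 0.314). The gene A630023A22Rik spans Anxa8 on the opposite strand, and it had at most 2 reads in any library. No stretch of 50 bases of the Anxa8 transcript was shared with another gene.

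Anxa3 codes for annexin A3, a member abundant in neutrophils and tied to granule fusion. It was also near silence in unstimulated cells, at 0.236, 0.789, 1.13 and 0.617 CPM in f2, m2, m3 and m4, which were 9 to 45 reads. In YFP- cells it stood at 11, 12.5, 13.5 and 8.12 CPM, and in YFP+ cells at 9.91, 9.81, 5.36 and 4.42 CPM. The stimulated groups lay above all unstimulated samples and overlapped each other. Anxa3 rose 18.1-fold in YFP- (log2 difference 4.17, SE 0.41; limma adjusted p = 3.3e-06) and 11.3-fold in YFP+ (3.50, SE 0.41; limma adjusted p = 6.4e-06) over unstimulated. Between YFP+ and YFP- the difference was -0.68 (SE 0.41; limma adjusted p = 0.264), the sign opposite to that of Anxa8. Without YFP+ m3 and m4 it was -0.17. Of 6 neutrophil markers, 0 were above 1 CPM in all samples of any group, and their summed level was 0.184 to 2.03 CPM in unstimulated, 0.0461 to 0.527 CPM in YFP- and 0.123 to 0.258 CPM in YFP+ samples.

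Anxa1 codes for annexin A1, known for restraining inflammation through formyl peptide receptors. It stood at 272, 270, 240 and 240 CPM in unstimulated f2, m2, m3 and m4. It was at 131, 125, 113 and 78.3 CPM in YFP- and at 112, 110, 77.6 and 67.1 CPM in YFP+ samples. Every stimulated sample was below every unstimulated sample, while the stimulated groups overlapped. Anxa1 fell 2.32-fold in YFP- (log2 difference -1.22, SE 0.19; limma adjusted p = 0.00015) and 2.85-fold in YFP+ (-1.51, SE 0.19; limma adjusted p = 1.2e-05). The YFP+ minus YFP- difference was -0.30 (SE 0.19; limma adjusted p = 0.293), and 0.01 without YFP+ m3 and m4. Its receptor genes were not measurable in these cells: Fpr2 had at most 3 reads in a library and Fpr1, Fpr3, Fpr-rs3 and Fpr-rs4 had 0 reads in all 12.

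Anxa4 codes for annexin A4, which self-assembles on membranes around wounds. It was at 32.4, 28.8, 29.6 and 15.6 CPM in unstimulated f2, m2, m3 and m4. It was at 26.3, 25.7, 18.5 and 17.3 CPM in YFP- and at 12.3, 13.3, 4.67 and 7.22 CPM in YFP+ samples. The YFP+ samples lay below all others, and the unstimulated and YFP- samples overlapped. Anxa4 was 2.5-fold lower in YFP+ than in YFP- (log2 difference -1.32, SE 0.32; limma adjusted p = 0.00973), with -1.09 in f2, -0.95 in m2, -1.99 in m3 and -1.26 in m4. Without YFP+ m3 and m4 the difference was -0.75 and no longer called (limma adjusted p = 0.0726). Against unstimulated, Anxa4 was 2.97-fold lower in YFP+ (-1.57, SE 0.32; limma adjusted p = 0.00079), which held without those samples (-1.0; limma adjusted p = 0.00465). The YFP- minus unstimulated difference was -0.25 (SE 0.32; limma adjusted p = 0.545). A small part of its transcript, 1.46% of the stretches of 50 bases, was shared with Gm44036.

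Anxa6 codes for annexin A6, the member with a doubled core that links membrane to actin and cholesterol. It was at 263, 237, 210 and 193 CPM in unstimulated and at 235, 305, 184 and 194 CPM in YFP- samples. In YFP+ samples it was at 200, 186, 46.1 and 46.3 CPM, so m3 and m4 lay far below f2 and m2 and apart from every other sample. Anxa6 was called lower in YFP+ than in unstimulated cells (log2 difference -1.25, SE 0.43; limma adjusted p = 0.0212), although the groups overlapped. That call rested on m3 and m4: without both the difference was -0.21 (limma adjusted p = 0.333), and it was -0.90 without m3 alone and -0.90 without m4 alone. Against YFP- the difference was -1.25 (SE 0.43; limma adjusted p = 0.0513), and -0.22 without m3 and m4. Within labels it was -0.23 in f2, -0.71 in m2, -2.0 in m3 and -2.07 in m4. Leaving out rRNA-like features only rescales the libraries, so the part of these reads in the low m3 and m4 values was not tested. With rRNA-like features taken out of the library totals, the YFP+ minus YFP- difference was -1.26 and was called (limma adjusted p = 0.0251). It was also called with the label as a block (0.0113), quantile normalization (0.0371), log2(CPM + 1) (0.0482), voom weights (0.049), without YFP+ f2 (-1.61; 0.00957) and without YFP+ m2 (-1.58; 0.0152).

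Anxa2 codes for annexin A2, which forms a tetramer with S100A10 that bridges membranes in exocytosis and binds plasminogen at the cell surface. It was the most abundant annexin in every sample, at 2159, 1944, 1873 and 1625 CPM in unstimulated f2, m2, m3 and m4. It was at 1734, 1914, 1657 and 1266 CPM in YFP- and at 2417, 2110, 1804 and 1562 CPM in YFP+ samples. All groups overlapped and no comparison was called in the fit as deposited, with log2 differences of -0.22 (limma adjusted p = 0.252) for YFP- over unstimulated, 0.04 (0.832) for YFP+ over unstimulated and 0.26 (0.251) for YFP+ over YFP-. Within labels the YFP+ minus YFP- difference was above 0 in all 4, at 0.48, 0.14, 0.12 and 0.30. It was called higher in YFP+ than YFP- with centring (0.52; limma adjusted p = 0.0152) and with the label as a block (0.26; limma adjusted p = 0.0494), and was 0.48 (limma adjusted p = 0.0573) without YFP+ m3 and m4. Anxa2 took 68.1% to 69.2% of the summed CPM of the 9 annexins without stimulation, 67.8% to 71.7% for YFP- and 71.0% to 80.6% for YFP+. The share of Anxa8 was 0.0130% to 0.0341%, 0.643% to 0.912% and 2.42% to 5.20%.

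Anxa5, the phosphatidylserine binder, was at 297, 282, 271 and 224 CPM in unstimulated, 246, 272, 213 and 185 CPM in YFP- and 260, 256, 170 and 164 CPM in YFP+ samples. Its groups overlapped, and the differences of -0.24 for YFP- over unstimulated (SE 0.18; limma adjusted p = 0.286) and -0.36 for YFP+ over unstimulated (SE 0.18; limma adjusted p = 0.0907) were not called. The last was -0.05 (limma adjusted p = 0.797) without YFP+ m3 and m4. It was called with the label as a block (0.0126), with quantile normalization (-0.58; 0.00188), with rRNA-like features left out (-0.56; 0.00308), without YFP+ f2 (-0.47; 0.0354) and without YFP+ m2 (-0.47; 0.0452). Anxa7, the first annexin found, which fuses granule membranes, was at 82.3, 80.3, 79.6 and 69.4 CPM in unstimulated samples. It was at 99.2, 119, 81.1 and 89.5 CPM in YFP- and at 128, 119, 71.0 and 82.6 CPM in YFP+ samples. The difference of YFP+ over unstimulated was 0.32 (limma adjusted p = 0.144), and 0.67 (limma adjusted p = 0.00175) without YFP+ m3 and m4, where it was called. It was also called with centring (0.45; 0.00847), with trimmed-mean scaling (0.45; 0.0419) and without YFP+ m3 alone (0.48; 0.0234). Anxa11, which tethers RNA granules to lysosomes, was at 14.2, 13.5, 11.2 and 10.1 CPM in unstimulated, 17.4, 21.9, 14.4 and 13.8 CPM in YFP- and 17.3, 13.3, 5.61 and 7.56 CPM in YFP+ samples. None of its comparisons was called in the fit as deposited, the largest being -0.74 for YFP+ over YFP- (SE 0.30; limma adjusted p = 0.0974). That difference was -0.13 (limma adjusted p = 0.763) without YFP+ m3 and m4, and it was called with the label as a block (0.023), with rRNA-like features left out (0.0425) and without YFP+ f2 (-1.0; 0.0151). Over unstimulated, Anxa11 in YFP+ was -0.28 (limma adjusted p = 0.431), and 0.33 without m3 and m4. In YFP- over unstimulated it was 0.45 (limma adjusted p = 0.222), and called (0.043) when only those 8 samples were fitted. Its values are uncertain, since 28.9% of the stretches of 50 bases in its transcript are shared with Gm2260, Gm2274 or Anxa11os, and the antisense gene Anxa11os held 0 to 26 reads beside 203 to 1079 for Anxa11.

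Over the family, 2 of 9 annexins (Anxa8 and Anxa3) were called higher and 1 (Anxa1) lower in YFP- than in unstimulated cells. Anxa8 and Anxa3 passed the filter through the stimulated samples, so no reading is taken from their being called higher as a count. Of all genes, 51.1% were called in this comparison, 30.2% higher and 20.9% lower. Of the 8 paralogs, 1 (Anxa3) was called higher and 3 (Anxa1, Anxa4 and Anxa6) lower in YFP+ than in unstimulated cells, beside 60.8% of all genes, 27.5% higher and 33.3% lower. Between YFP+ and YFP-, 0 of the 8 were called higher and 1 (Anxa4) lower by limma (0 and 3 at an unadjusted p under 0.05), beside 21.8% of all genes, 3.28% higher and 18.5% lower, and no reading is taken from this count because the choice of Anxa8 used that contrast. In either direction, 3 of the 9 annexins were called in YFP- over unstimulated, beside 51.1% of all genes. In YFP+ over unstimulated, 4 of the 8 paralogs were called, beside 60.8%. The YFP- count includes Anxa8 and Anxa3 and the YFP+ count includes Anxa3. Because of how these genes passed the filter, no reading is taken from either count. The median log2 difference was 0.01 for the 9 annexins and 0.14 for all genes in YFP- over unstimulated. For the 8 paralogs it was -0.32 against -0.03 in YFP+ over unstimulated, and -0.49 against -0.19 in YFP+ over YFP-. Groups did not overlap for 3 of 9, 3 of 8 and 1 of 8, beside 52.7%, 54.7% and 22.1% of all genes. The comparisons share samples, so these counts are not independent of each other. The annexin genes outside the 9 were Anxa9, Anxa10, with at most 1 read, and Anxa13, with at most 6 reads. Anxa9 passed the filter through the unstimulated samples, where it was highest, so its calls and p-values below are not independent of the filter. Anxa9, at 1.79 to 4.22 CPM in unstimulated samples, 0.428 to 1.22 CPM in YFP- and 0.470 to 1.75 CPM in YFP+, was called lower in YFP- (log2 difference -2.04, SE 0.44; limma adjusted p = 0.00173) and in YFP+ (-1.57, SE 0.44; limma adjusted p = 0.00715) than in unstimulated cells, without overlap.

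The library scale bears on the smaller differences. As deposited, 59.1% of the genes called in YFP- over unstimulated were higher, against 49.3% with quantile normalization, 49.9% with each sample centred on its median and 47.1% with rRNA-like features left out. Between YFP+ and YFP-, 405 genes were higher and 2286 lower, but 1163 and 1430 with quantile normalization, 1505 and 1491 with centring, and 1016 and 1675 with trimmed-mean scaling. Centring moved the median of all genes in YFP+ over YFP- from -0.19 to 0.07. Relative to the median of all genes, the differences of Anxa8, Anxa3 and Anxa1 in YFP- over unstimulated were 4.55, 4.04 and -1.35, and that of Anxa4 in YFP+ over YFP- was -1.13. Anxa5 in YFP+ over YFP- was -0.13 as deposited and 0.13 with centring, so it has no stable direction. Anxa2 and Anxa5 were called lower in YFP- than unstimulated cells with quantile normalization (-0.52 and -0.51), with centring (-0.36 and -0.37) and with rRNA-like features left out (-0.40 and -0.42).

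**Figure D2:**
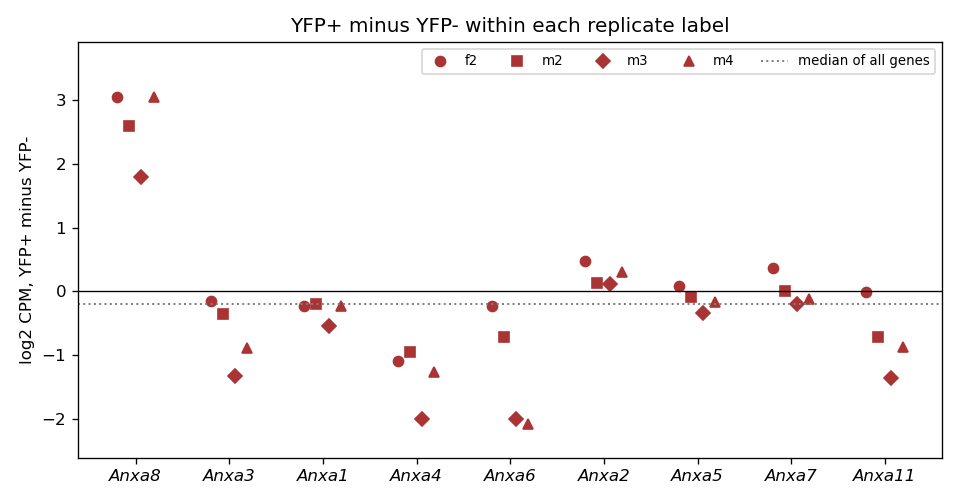
YFP+ minus YFP- difference in log2 CPM (y axis) within each replicate label for the 9 annexin genes (x axis), with a dotted line at the median over all genes, -0.19. All 4 Anxa8 points lie at or above 1.80, all 4 Anxa4 points at or below -0.95, and the Anxa6 points range from -0.23 in f2 and -0.71 in m2 to -2.07 in m4.

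To compare levels between genes, CPM was divided by the length of all exons in kb. For Anxa8 this length, 1880 bases, was also that of its longest coding transcript, and for Anxa5 they were close (1777 and 1731). It was far longer than that transcript for Anxa4 (4645 against 2030), Anxa2 (3731 against 1447), Anxa3 (3643 against 1595) and Anxa7 (5991 against 2904). It was also longer for Anxa11 (4135 against 2394), Anxa1 (2911 against 1674) and Anxa6 (2930 against 2489). Places and overlaps below therefore depend on the length used, and no other length was tried. In unstimulated cells Anxa2 led with 509 ± 59.1 CPM per kb (SD, n = 4), followed by Anxa5 with 151, Anxa1 with 87.7, Anxa6 with 77.0, Anxa7 with 13, Anxa4 with 5.72, Anxa11 with 2.96, Anxa8 with 0.383 and Anxa3 with 0.190. Neighbours in this order whose sample ranges overlapped were Anxa1 and Anxa6, Anxa4 and Anxa11, and Anxa8 and Anxa3. In YFP- cells Anxa8 stood at 9.43 ± 3.10 CPM per kb, sixth, with a range that overlapped that of Anxa7 (16.2) above it and not that of Anxa4 (4.73) below it. In YFP+ cells Anxa8 stood at 60.4 ± 24.7 CPM per kb, at place 3 after Anxa2 (529) and Anxa5 (119). Its range overlapped that of Anxa6 (40.9), and the ranges of Anxa6 and Anxa1 (31.4) overlapped, while Anxa5 lay above all Anxa8 samples. The level of Anxa8 thus went from near the bottom of the family to place 3. Its YFP+ range, 28.8 to 82.2 CPM per kb, reached above those of Anxa6 (15.7 to 68.3) and Anxa1 (23.0 to 38.3) and overlapped them.

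**Figure D3:**
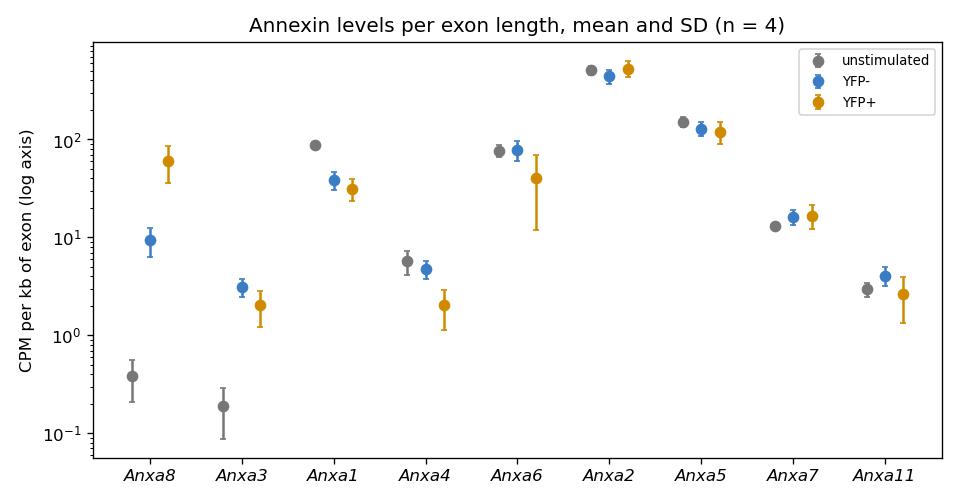
Mean level per exon length (y axis, CPM per kb of exon, log axis) of the 9 annexin genes (x axis) in the 3 groups, with bars of 1 SD (n = 4). Anxa2 lies highest in every group and Anxa8 moves from 0.383 in unstimulated to 9.43 in YFP- and 60.4 in YFP+ samples.

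Genes whose log2 CPM ran most like that of Anxa8 were ranked by Pearson's correlation, as a description. The ranking covered 7891 protein-coding genes kept by the filter with a mean log2 CPM of at least 2 in YFP+ samples. Over all 12 samples, which differ in group, the leading genes were Spp1 (osteopontin, 0.994), Mydgf (a secreted growth factor, 0.993), Mmadhc (0.991), Cyb5r1 (0.990) and Gmppb (an enzyme of sugar nucleotide synthesis, 0.990). Within the 8 stimulated samples they were Lat (an adaptor of antigen receptor signalling, 0.992), Creld2 (0.985), Selenos (0.983), Zbtb32 (a transcriptional repressor, 0.982) and Tns1 (0.981). Those samples hold the YFP+ and YFP- groups whose contrast chose Anxa8, so genes higher in YFP+ rank high there by that difference alone. Among the paralogs the highest values were 0.823 for Anxa3 over the 12 samples and 0.687 for Anxa2 over the 8. These stood only at places 1662 and 680 of the 7891 genes. Mean Spp1 was 1448 CPM in unstimulated, 5463 CPM in YFP- and 11882 CPM in YFP+ samples, and mean Creld2 was 52.5, 135 and 271 CPM.

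The partners of annexins were read from 8 lists. Of 8 S100 partners, the small calcium-binding proteins and the scaffold Ahnak that bind annexin tails, 7 were tested. In YFP- over unstimulated 0 were higher and 7 lower, in YFP+ over unstimulated 0 and 7, and in YFP+ over YFP- 0 and 3, beside 20.9%, 33.3% and 18.5% of all genes called lower, with median log2 differences of -1.26, -1.18 and -0.21 against 0.14, -0.03 and -0.19 for all genes. S100a10, the obligate partner of annexin A2 in the tetramer, was at 467, 582, 504 and 543 CPM in unstimulated f2, m2, m3 and m4. It was at 191, 203, 207 and 172 CPM in YFP- and at 74.1, 87.9, 106 and 64.6 CPM in YFP+ samples. No group overlapped another, with log2 differences of -1.44 (SE 0.14; limma adjusted p = 4e-06) in YFP- over unstimulated, -2.68 (SE 0.14; limma adjusted p = 6.6e-09) in YFP+ over unstimulated and -1.24 (SE 0.14; limma adjusted p = 7e-05) in YFP+ over YFP-. As a ratio within each library, which no scaling of libraries alters, log2 of S100a10 over Anxa2 was -1.86 ± 0.27 without stimulation, -3.08 ± 0.17 for YFP- and -4.58 ± 0.38 for YFP+ (SD, n = 4). The ranges of this ratio, -2.21 to -1.58, -3.24 to -2.88 and -5.03 to -4.10, did not overlap, so S100a10 and Anxa2 changed unequally. The ratio is not per length, and only its differences between groups can be read.

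Ahnak, a giant scaffold that binds the annexin A2 and S100A10 complex, followed the same course, at 139 to 190 CPM in unstimulated, 51.3 to 74.4 CPM in YFP- and 17.0 to 27.2 CPM in YFP+ samples. Its log2 differences were -1.44 (limma adjusted p = 2.1e-05), -2.91 (1.8e-08) and -1.47 (8.7e-05) in YFP- over unstimulated, YFP+ over unstimulated and YFP+ over YFP-. S100a11, the partner of annexin A1, was at 387 to 456 CPM in unstimulated, 241 to 326 CPM in YFP- and 196 to 305 CPM in YFP+ samples. It fell by 0.62 (limma adjusted p = 0.00227) and by 0.82 (limma adjusted p = 0.00016) in the log2 difference from unstimulated, and log2 of S100a11 over Anxa1 was 0.75 ± 0.18, 1.35 ± 0.20 and 1.44 ± 0.42 in the 3 groups. S100a4, a motility factor, fell by 1.52 in YFP- (limma adjusted p = 0.0027) and by 1.18 in YFP+ (limma adjusted p = 0.00982) over unstimulated, and its YFP+ minus YFP- difference was 0.34 (limma adjusted p = 0.527). S100a13 had log2 differences of -0.81 (limma adjusted p = 0.00112), -1.31 (1.2e-05) and, for YFP+ over YFP-, -0.50 (limma adjusted p = 0.0427), a call lost under 14 of 20 alternatives.

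Penta-EF-hand proteins include the calpains, calcium-activated proteases that act in membrane repair, and sorcin, a partner of annexins A7 and A11. All 9 of this list were tested, with 2 higher and 4 lower in YFP- over unstimulated, 3 and 6 in YFP+ over unstimulated, and 0 and 3 in YFP+ over YFP-, beside 51.1%, 60.8% and 21.8% of all genes called in either direction. Capn1, the catalytic subunit of calpain 1, was at 41.3 to 49.9 CPM, 15.2 to 22.0 CPM and 7.65 to 10.2 CPM in unstimulated, YFP- and YFP+ samples without overlap. Its log2 differences were -1.26, -2.27 and -1.01 (limma adjusted p = 1.2e-05, 2.6e-08 and 0.0003). Capns1, the small calpain subunit, fell by 0.80, by 1.25 and by 0.45 in the same comparisons, and Sri, coding for sorcin, by 0.45, by 1.22 and by 0.77. The call of Capns1 in YFP+ over YFP- was lost under 11 of 20 alternatives. Capn2 fell by 1.02 and by 1.38 over unstimulated, while its YFP+ minus YFP- difference was -0.36 (limma adjusted p = 0.215). Of 11 genes for C2 domain proteins of repair and fusion, 4 were tested, with 0 higher and 1 lower, 0 and 4, and 0 and 3, beside those same shares of all genes. Of these, the copine genes Cpne2 and Cpne7 reached at most 2.41 and 1.90 CPM in any library. Cpne2 passed the filter through the unstimulated samples and Cpne7 through the YFP- samples, where each was highest. Their p-values below and the counts of this list are therefore not independent of the filter. Cpne7 was -1.74 in YFP+ over YFP- (SE 0.39; limma adjusted p = 0.00588), and Cpne2 was -3.66 in YFP+ over unstimulated (SE 0.89; limma adjusted p = 0.00268), where YFP+ m4 had 0 reads.

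The ESCRT-III genes code for filaments that pinch off damaged membrane. Of 12 such genes 11 were tested, with 3 higher and 0 lower in YFP- over unstimulated, 3 and 2 in YFP+ over unstimulated, and 0 and 0 in YFP+ over YFP-, where 2 had an unadjusted p under 0.05. The shares called were thus below the 51.1%, 60.8% and 21.8% of all genes. Chmp1b was 0.83 higher in YFP- (limma adjusted p = 0.0121) and 0.63 higher in YFP+ (limma adjusted p = 0.0405) than unstimulated, in log2, the latter call lost under 10 of 20 alternatives. Chmp1a was -0.75 in YFP+ over unstimulated (limma adjusted p = 0.0147). All 10 genes of phosphatidylserine exposure, the signal that annexin A5 binds, were tested, with 2 higher and 5 lower, 2 and 5, and 1 and 0, beside 51.1%, 60.8% and 21.8% of all genes called. The list's median log2 differences were -0.54, -0.45 and 0.04, against 0.14, -0.03 and -0.19 for all genes. The 2 that rose over unstimulated were the scramblase genes Plscr1 and Xkr8: Plscr1 stood at 130 to 145 CPM in unstimulated, 424 to 559 CPM in YFP- and 416 to 656 CPM in YFP+ samples. Its log2 differences over unstimulated were 1.84 (limma adjusted p = 5e-07) and 1.94 (9.9e-08), and those of Xkr8 were 1.44 (2.8e-05) and 1.84 (1.4e-06).

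Phospholipases A2 release arachidonic acid, and annexins were early described as their inhibitors. Of 6 genes in this list 5 were in the table and 3 tested, with 0 called in YFP- over unstimulated (1 at an unadjusted p under 0.05), 2 higher in YFP+ over unstimulated and 1 higher in YFP+ over YFP-, beside 51.1%, 60.8% and 21.8% of all genes called. Pla2g12a, a secreted form, was 0.71 higher in YFP+ than in YFP- (SE 0.17; limma adjusted p = 0.0105), and Pla2g6 was 0.82 higher in YFP+ than in unstimulated cells (limma adjusted p = 0.0331), a call lost under 6 of 20 alternatives. Without YFP+ m3 and m4 the Pla2g12a difference was 0.71 (limma adjusted p = 0.0544). In the plasminogen system, which annexin A2 serves at the cell surface, 4 of 8 genes were tested, with 3 higher and 0 lower, 2 and 1, and 0 and 2, beside the same shares. Serpine2, an inhibitor of plasminogen activators, was at 1.29 to 3.57 CPM in unstimulated, 34.6 to 59.0 CPM in YFP- and 8.09 to 35.2 CPM in YFP+ samples. It rose by 4.25 in YFP- (limma adjusted p = 3.7e-06) and by 2.94 in YFP+ (limma adjusted p = 4.2e-05), and was -1.31 in YFP+ over YFP- (limma adjusted p = 0.041), a direction opposite to that of Anxa8. That last call was lost under 11 of 20 alternatives, and it was -0.67 (limma adjusted p = 0.229) without YFP+ m3 and m4. Plau, coding for urokinase, rose by 3.12 (limma adjusted p = 2.7e-05) and by 3.38 (limma adjusted p = 6e-06) from at most 0.262 CPM. Its level stayed low, at 1.22 to 3.34 CPM in YFP- and 1.55 to 2.58 CPM in YFP+ samples. In unstimulated m4 it was at the floor of 3 reads (0.0925 CPM). Plau passed the filter only through the stimulated samples, so these p-values are not independent of the filter.

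**Figure D4:**
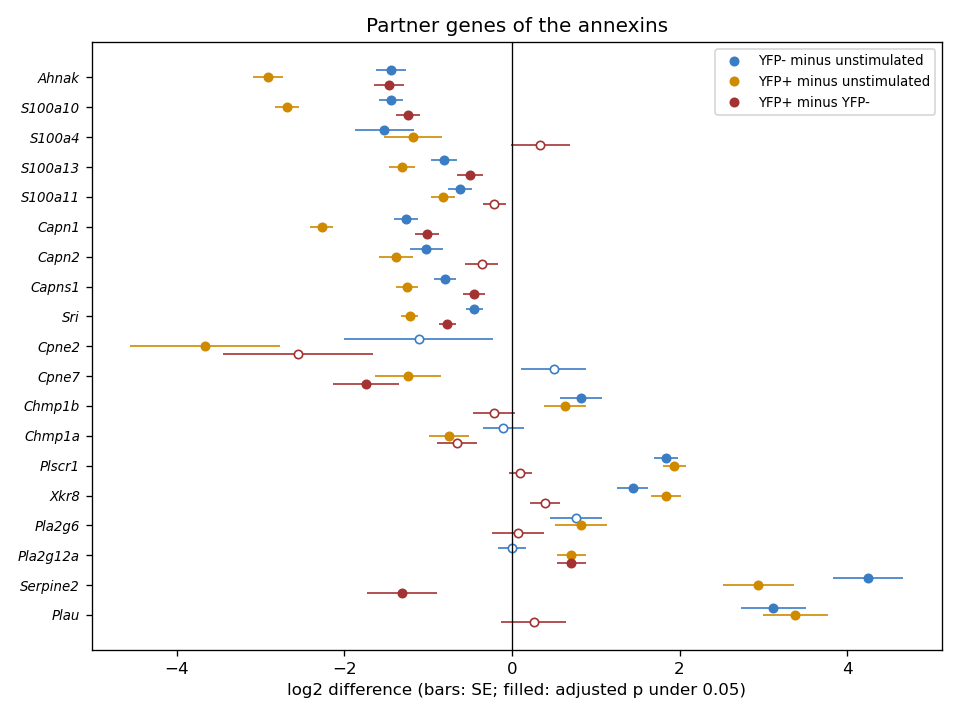
Log2 difference (x axis, bars of 1 SE) of 19 partner genes in the 3 comparisons, with filled points for limma adjusted p under 0.05 and open points otherwise. Ahnak, S100a10 and Capn1 lie below 0 in all 3 comparisons, while Plscr1, Xkr8, Serpine2 and Plau lie above 0 in both comparisons with unstimulated samples.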

How the data were processed

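Sorted NK cells were measured by RNA-seq with the SMARTer Ultra Low RNA kit from 10 ng of total RNA, per the labels' protocols. STAR 2.7.9a, featureCounts 2.0.3, Subread, bcl2fastq and build GRCm38 are named in the submitters' processing notes, and whether counting used strand is not given in the sources used here. The authors deposited moderated log2 CPM for 12 samples, per the file headers, with 0 per-sample columns outside these. Of 55774 lines, 287 repeats were dropped. CPM without the prior of 0.5 reads was computed from whole reads recovered for 100% of values, within 0.01 reads.

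A linear model with a mean for each group was fitted over the 12 samples with limma 3.58.1 in R 4.3.3 (lmFit, contrasts, eBayes with trend) on log2 CPM of 12364 genes above 0 in at least 4 samples, and the fit was tested on simulated data. The members and lists were chosen with earlier results of these data known. All 9 annexins are named, and so are the 4 largest differences among called genes of the S100 and penta-EF-hand lists, the 2 largest of the other partner lists, S100a10 and S100a11. Among genes most like Anxa8, 5 are named per set of samples. Alternatives were the label as a block, only the compared samples, no low-value filter, a stricter filter (log2 CPM above 2), log2(CPM + 1), quantile normalization, median centring, trimmed-mean scaling, rRNA-like features left out, no trend, voom weights, and each library left out. Tables and plots were made in Python 3.11.15 with numpy 2.4.6, pandas 2.3.3 and, for plots, matplotlib 3.10.9.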

Additional observations from a re-analysis of the deposited data

Results flagged for a closer look

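In 7 of 84 gene and group pairs examined, 1 sample of 4 lay so far from the rest that its gap, as a share of the group's range, passed Dixon's 95% limit for 4 samples. Chance flags about 1 pair in 20, which is 4.2 of 84. For Anxa4 in unstimulated cells the share was 0.838, with m4 at log2 CPM 3.96 and the others at 4.85 to 5.02. For Serpine2 the share was 0.912 in unstimulated cells, with m4 at 0.39 against 1.71 to 1.84, and 0.943 in YFP- cells, with m3 at 5.11 against 5.84 to 5.88. In YFP- cells S100a13 had a share of 0.854 (m3 at 6.68 against 6.45 to 6.48), Capns1 0.880 (m4 at 5.87 against 6.23 to 6.28) and Chmp1b 0.849 (m2 at 4.50 against 3.78 to 3.89). For Cpne2 in YFP+ cells the share was 0.893, since m4 had 0 reads, listed at -6.35, and the others were at -1.62 to -1.05.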

How the results depend on the processing

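The calls of Anxa8 and Anxa3 as higher and Anxa1 as lower than unstimulated, where tested, held under every alternative run. With 3 annexins called in YFP- over unstimulated, quantile normalization, centring and leaving out rRNA-like features each gave 5. With 1 called in YFP+ over YFP-, no filter gave 0, log2(CPM + 1) 2, quantile normalization 2, centring 2, rRNA-like features left out 3, voom weights 2, and each library left out 1 to 3. The number of genes called there was 1583 without a filter against 2691. Leaving out YFP+ m3 and m4 together, chosen after seeing the data, gave 0 annexins there. The cause was not tested. Same-label samples deviated from their group means with correlations of -0.059 to 0.100 in YFP- over unstimulated, -0.042 to 0.375 in YFP+ over unstimulated and 0.054 to 0.374 in YFP+ over YFP-. In the last, 3 of 4 labels were over 0.1 and f2 was at 0.054, so the block was kept as an alternative. With the replicate label as a block, 3, 5 and 4 annexins and 6682, 7774 and 3098 genes were called in YFP- over unstimulated, YFP+ over unstimulated and YFP+ over YFP-. In the last the block added Anxa2 (limma adjusted p = 0.0494), Anxa6 (0.0113) and Anxa11 (0.023), and in YFP+ over unstimulated it added Anxa5 (0.0126).

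Anxa6 in YFP+ over unstimulated lost its call without a filter (limma adjusted p = 0.172) and without unstimulated f2 (0.0525), YFP+ m3 (0.058) or YFP+ m4 (0.0728). Anxa4 in YFP+ over YFP- lost it without a filter (0.104). Anxa8 in YFP+ over unstimulated was 5.97 on the log2(CPM + 1) scale. Of 531 alternative values of annexins, 474 kept direction and side of the threshold, and 10 of 27 results did so under all alternatives. These counts include the Anxa8 values in the comparisons with YFP+ samples. Those values were not tested and had no side of the threshold to keep, so they say nothing on its choice. For partners the counts were 1013 of 1112 values and 36 of 57 results, with 58 calls lost. Leaving out 1 library lost the YFP+ over YFP- call of S100a13 for 7 of 8 libraries, all but YFP+ m3 (limma adjusted p = 0.0664 to 0.0938). It lost that of Capns1 without YFP- f2, m2 or m3 or YFP+ f2 or m4 (0.0526 to 0.0801), and that of Serpine2 without YFP- f2, m2 or m4 or YFP+ m3 or m4 (0.0785 to 0.102). In YFP+ over unstimulated it lost that of Chmp1b for all but YFP+ m3 (0.0528 to 0.12), and that of Pla2g6 without unstimulated f2, m3 or m4 or YFP+ f2 or m2 (0.0545 to 0.0981). Without a filter, Chmp1b in YFP- over unstimulated (0.0914) and Chmp1a (0.112), S100a4 (0.0857) and Cpne7 (0.0622) in YFP+ over unstimulated lost their calls, the last also with quantile normalization (0.0793).

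Some values changed sign. For quantile normalization, centring, trimmed-mean scaling and rRNA-like features left out, Anxa6 in YFP- over unstimulated was -0.27, -0.13, -0.02 and -0.18, and Pla2g12a -0.01, -0.14, -0.02 and -0.18 (-0.01 with voom). Anxa2 in YFP+ over unstimulated was -0.15 with quantile normalization and -0.15 with rRNA-like features left out. In YFP+ over YFP-, Anxa5 was 0.13 with centring and 0.02 with trimmed-mean scaling, S100a11 0.06 with centring, and Chmp1b 0.04 with quantile normalization and 0.05 with centring. Without YFP+ m3 and m4, Anxa5 was 0.18, Anxa1 0.01, S100a4 -0.16 and Chmp1b 0.13 there, and Anxa11 0.33 in YFP+ over unstimulated. With 1 library left out, Anxa6 in YFP- over unstimulated ran from -0.14 to 0.10, Pla2g12a from -0.10 to 0.09, and Anxa2 in YFP+ over unstimulated from -0.06 to 0.15. In YFP+ over YFP-, Anxa7 ran from -0.11 to 0.17, Pla2g6 from -0.17 to 0.30, Plscr1 from -0.01 to 0.21 and Chmp1b from -0.38 to 0.05. Anxa8 and Anxa3 rested on 9 to 45 reads a library in unstimulated samples, above the floor of 3 reads.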
